A study of Homo sapiens with 6 samples.

Results

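The genes described here are 10 members of the interleukin-6 (IL-6) cytokine family and its signalling chain: the cytokines IL11, IL6, LIF and CLCF1, the receptor chains IL6ST, IL6R, LIFR and OSMR, the transcription factor STAT3 and the feedback inhibitor SOCS3. They were taken by symbol from the 56638 gene rows of each count table, and all 10 were among the 14897 genes with enough reads to be tested. All libraries are labelled as SW480, an established line from a human colon adenocarcinoma, used at passages 16 to 19 in medium with fetal bovine serum. For the 3 TGFB1 libraries the cells were given TGF-β1 repeatedly at 10 ng/ml, while untreated cells made the 3 control libraries. The sources used here give neither the length of exposure nor whether each library had its own culture. The p-values therefore refer to the spread between these 6 libraries, which may be technical.

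Cytokines of this family share the signalling receptor chain gp130, which IL6ST encodes. IL-6 and IL-11 first bind their own non-signalling chains, IL6R and IL11RA, and then bring gp130 chains together, while LIF and CLCF1 signal through gp130 paired with LIFR, and oncostatin M through gp130 paired with LIFR or OSMR. The paired chains activate JAK kinases, which phosphorylate STAT3, and SOCS3, itself a STAT3 target, binds gp130 and damps the signal. In colorectal tumours IL-11 is known mainly as a product of stromal fibroblasts exposed to TGF-β.

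Promoter sequences are shown for 5 family genes, because the sequence just before the start of each gene can be set beside how that gene moved. Each run is the 250 bases before a start site annotated by RefSeq on GRCh38.p14, 5′ to 3′ on the gene's own strand. Capitals mark TGANTCA, the AP-1 motif (bound by JUN and FOS proteins), or TTCNNNGAA, the STAT motif, each searched on both strands, and the motifs did not overlap in these 5 runs. IL11 is shown as the cytokine with the largest rise, EBI3 and CNTF as the other family ligands with an AP-1 match, and LIFR and OSMR as the receptor chains that moved in opposite directions.
IL11, chr19:55370464-55370713, minus strand: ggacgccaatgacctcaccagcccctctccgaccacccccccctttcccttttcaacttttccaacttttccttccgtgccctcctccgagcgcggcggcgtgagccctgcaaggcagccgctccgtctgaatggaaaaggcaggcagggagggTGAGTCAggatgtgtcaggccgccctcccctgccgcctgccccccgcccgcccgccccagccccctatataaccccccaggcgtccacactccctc
EBI3, chr19:4229273-4229522, plus strand: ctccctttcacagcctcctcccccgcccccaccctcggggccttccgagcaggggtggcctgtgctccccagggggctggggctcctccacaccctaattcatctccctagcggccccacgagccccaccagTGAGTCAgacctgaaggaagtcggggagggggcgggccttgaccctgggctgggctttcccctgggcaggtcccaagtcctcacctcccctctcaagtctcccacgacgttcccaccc
CNTF, chr11:58622415-58622664, plus strand: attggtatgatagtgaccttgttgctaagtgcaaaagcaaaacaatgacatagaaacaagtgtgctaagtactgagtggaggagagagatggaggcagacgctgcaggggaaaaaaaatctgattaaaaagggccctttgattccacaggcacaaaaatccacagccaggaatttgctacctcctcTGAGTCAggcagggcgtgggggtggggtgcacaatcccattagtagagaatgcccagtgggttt
LIFR, chr5:38595406-38595655, minus strand: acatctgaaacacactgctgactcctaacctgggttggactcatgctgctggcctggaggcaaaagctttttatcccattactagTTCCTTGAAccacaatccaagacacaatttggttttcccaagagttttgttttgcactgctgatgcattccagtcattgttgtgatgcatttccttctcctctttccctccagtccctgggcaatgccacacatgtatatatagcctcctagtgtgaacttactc
OSMR, chr5:38845762-38846011, plus strand: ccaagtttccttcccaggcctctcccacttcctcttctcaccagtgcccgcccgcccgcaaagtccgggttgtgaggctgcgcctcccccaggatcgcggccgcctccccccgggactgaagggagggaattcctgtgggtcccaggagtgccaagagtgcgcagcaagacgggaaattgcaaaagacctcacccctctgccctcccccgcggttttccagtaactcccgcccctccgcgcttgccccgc
The single AP-1 match of IL11, TGAGTCA, lay 96 to 90 bases before the start, that of EBI3 at 118 to 112 and that of CNTF at 64 to 58. Promoters were matched for 8 of the 10 members, at 11 start sites, and LIF and CLCF1 were not matched. The AP-1 motif was found at 1 of these 11 starts, against 6.57% of 35116 promoters of the same length. The STAT motif was found at 2 of the 11, both of them starts of LIFR, against 6.57% of promoters. The LIFR run shown is the most upstream of its matched starts, and counts per gene do not show which start was used. The second STAT match is in the LIFR run at chr5:38557468-38557717. A further LIFR run, at chr5:38556647-38556896, has neither an AP-1 nor a STAT match. The SMAD-binding letters CAGAC were found at 5 of the 11, against 38.0% of promoters, and the palindrome GTCTAGAC at 0, against 0.182%. Of the 3 genes with an AP-1 match shown here, IL11 rose 10.1-fold and EBI3 2.09-fold, while CNTF was not called. Among all tested genes 23.4% were called higher. IL6 and OSMR rose 2.34-fold and 1.82-fold without an AP-1 match in their matched promoters. The matches describe letters and do not show binding, and their part in these changes was not tested.

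Of the 10 members 4 were higher with TGF-β1 (IL11, IL6, CLCF1 and OSMR), 3 were lower (LIFR, SOCS3 and IL6R) and 3 did not pass the test (LIF, IL6ST and STAT3). The test was edgeR's quasi-likelihood test with p-values adjusted over all 14897 genes by Benjamini-Hochberg and a threshold of 0.05. Across all tested genes 47.3% were called, 23.4% higher and 23.9% lower, so the members' 7 of 10 stand beside a background in which about as many genes changed as did not. The TGFB1 and control libraries did not overlap for 7 members, the same 7 that were called, against 54.2% of all tested genes. The members' median log2 fold change was −0.023, beside 0.00033 over all tested genes. Levels are in CPM, a gene's count relative to the TMM-scaled total of its library, as mean ± SD over 3 libraries. A positive log2 fold change means a higher level with TGF-β1.

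**Figure D1:**
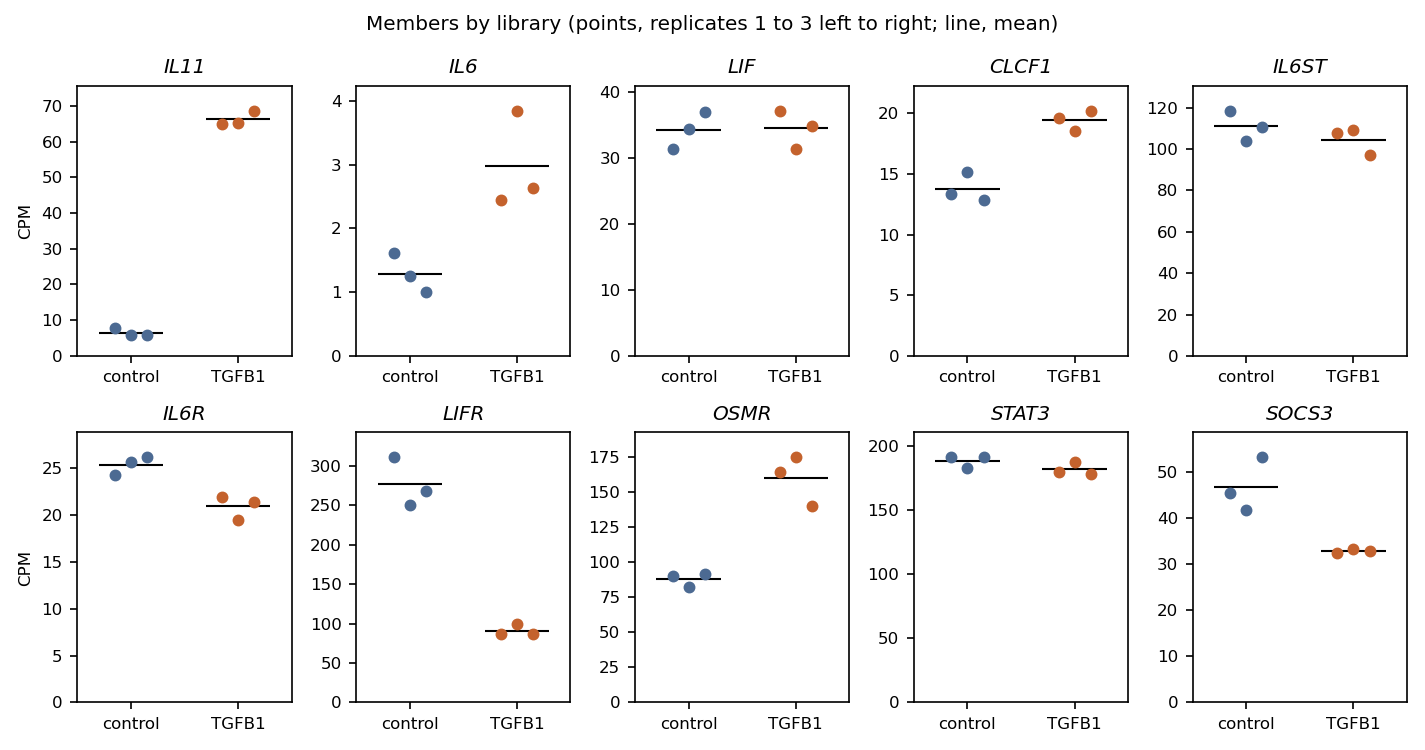
Level of each of the 10 members in CPM (vertical axes, linear, from 0) in 3 control and 3 TGFB1 libraries (points, with the mean as a line). IL11, IL6, CLCF1 and OSMR lie higher in all TGFB1 libraries, LIFR, SOCS3 and IL6R lie lower, and the groups overlap for LIF, IL6ST and STAT3.

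IL11 had the largest change of the members. It stood at 7.78, 5.97 and 5.88 CPM in control libraries 1, 2 and 3 and at 65.0, 65.1 and 68.7 CPM in TGFB1 libraries 1, 2 and 3, from 280 and 2931 reads in all. The 3 TGFB1 libraries lay close together and far above the highest control. The log2 fold change was 3.34 ± 0.091 (SE), a 10.1-fold rise with a 95% interval of 8.92 to 11.5 (edgeR adjusted p = 3.67e-22). Ordered from the largest rise down, IL11 ranked 87 among the 14897 tested genes.

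IL6, the founding cytokine of the family and an inducer of the acute-phase response, was the least abundant member. It stood at 1.62, 1.25 and 1.00 CPM in control libraries (15 to 22 reads) and at 2.45, 3.85 and 2.64 CPM in TGFB1 libraries (35 to 63 reads). TGFB1 library 2 was the highest, and even the lowest TGFB1 library was above every control. The 2.34-fold rise had a 95% interval of 1.61 to 3.39 (edgeR adjusted p = 0.000279).

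CLCF1, a ligand of the ciliary neurotrophic factor receptor, stood at 13.4, 15.1 and 12.9 CPM in control and at 19.6, 18.6 and 20.2 CPM in TGFB1 libraries. The groups were separate but near each other, a rise of 1.41-fold (95% interval 1.23 to 1.61, edgeR adjusted p = 7.44e-05).

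LIF, a cytokine that keeps stem cells undifferentiated in culture, held 31.4, 34.4 and 37.0 CPM in control and 37.2, 31.4 and 34.8 CPM in TGFB1 libraries. The groups overlapped completely, with 34.3 ± 2.83 and 34.5 ± 2.89 CPM, and a 95% interval of the fold from 0.898 to 1.12 (edgeR adjusted p = 0.970). The count of IL11 relative to that of LIF within a library, which does not depend on the scaling of libraries, was 0.159 to 0.248 in the control group against 1.75 to 2.07 in the TGFB1 group.

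Of 6 other ligand genes of the family (OSM, CNTF, CTF1, IL27, EBI3 and IL31) CNTF and EBI3 had enough reads to be tested, and 1 of these 2 rose. EBI3, the subunit that pairs with the IL27 gene product to form interleukin 27, rose from 3.69 ± 0.355 to 7.74 ± 1.13 CPM (edgeR adjusted p = 2.24e-06). IL27 and IL31 had 0 reads in all 6 libraries, which allows up to 0.0698 CPM over the control group and 0.0677 CPM over the TGFB1 group, counting error only. OSM had 1 read in each group and CTF1 1 control read. CNTF stood at 1.60 ± 0.548 and 1.80 ± 0.190 CPM and was not called (edgeR adjusted p = 0.685).

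Receptor chains moved in different directions. LIFR fell and OSMR rose, while gp130 itself was not called. LIFR stood at 311, 249.96 and 268 CPM in control and at 86.3, 99.9 and 87.1 CPM in TGFB1 libraries. Every control library was far above the highest TGFB1 library, and the fall was 3.03-fold (95% interval 2.72 to 3.37, log2 fold change −1.60 ± 0.074, edgeR adjusted p = 3.24e-12). LIFR-AS1, an antisense gene that overlaps LIFR exons, fell from 4.44 ± 1.24 to 2.93 ± 0.0636 CPM (edgeR adjusted p = 0.0173). It is low beside LIFR, and reads of the pair cannot be told apart without strand.

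OSMR, which pairs with gp130 for oncostatin M and with IL31RA for interleukin 31, stood at 90.2, 82.2 and 91.6 CPM in control and at 164, 175 and 140 CPM in TGFB1 libraries. TGFB1 library 3 was the lowest of its group and still above every control. The rise was 1.82-fold (95% interval 1.65 to 2.00, edgeR adjusted p = 3.55e-10). The RICTOR gene overlaps OSMR exons on the other strand and stood at 48.2 ± 8.03 and 51.6 ± 6.67 CPM, not called (edgeR adjusted p = 0.511).

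IL6ST (gp130) held 119, 104 and 111 CPM in control and 108, 109 and 97.1 CPM in TGFB1 libraries. The groups overlapped, and the fold lay between 0.868 and 1.02 by its 95% interval (edgeR adjusted p = 0.245). IL6R, the IL-6 binding chain, stood at 24.2, 25.7 and 26.2 CPM in control and at 21.9, 19.5 and 21.4 CPM in TGFB1 libraries. This was a small fall of 1.21-fold with separate groups (95% interval 1.08 to 1.36, edgeR adjusted p = 0.00551).

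Within single libraries the ratio of LIFR to OSMR reads was 3.45, 3.04 and 2.93 in control and 0.526, 0.571 and 0.622 in TGFB1 libraries. LIFR thus had more reads than OSMR in each control library and fewer in each TGFB1 library. Relative to IL6ST reads, LIFR went from 2.48 ± 0.120 to 0.872 ± 0.0610 and OSMR from 0.793 ± 0.0341 to 1.52 ± 0.0817. With 3 libraries against 3, an exact permutation test of such a ratio cannot go below 0.10, so these are given as values.

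**Figure D2:**
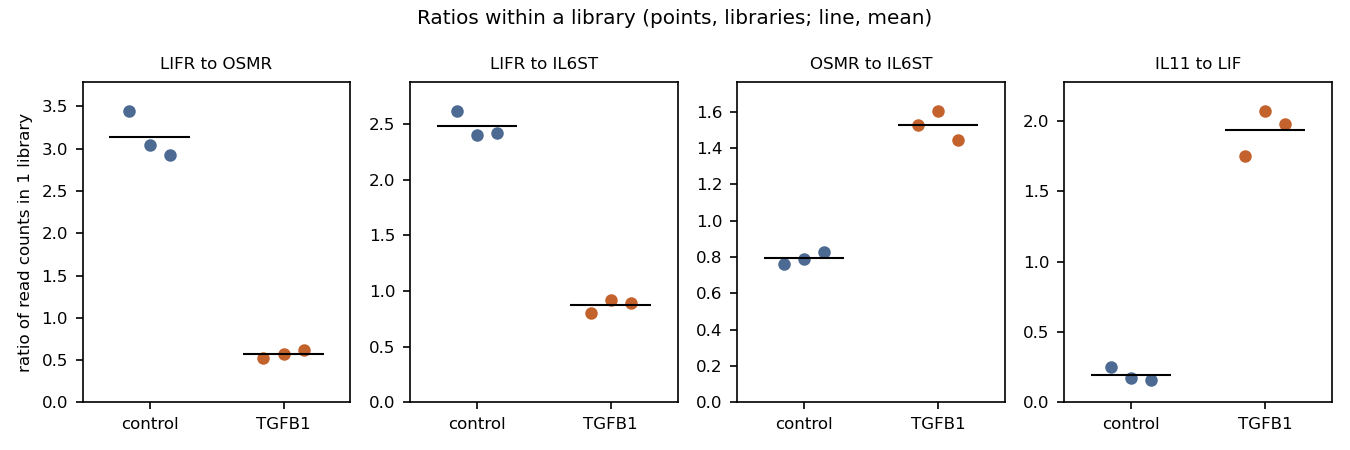
Ratio of read counts of 2 genes in the same library (vertical axes, linear, from 0) in each of 3 control and 3 TGFB1 libraries (points, with the mean as a line). The ratio of LIFR to OSMR is 2.93 to 3.45 in the control group against 0.526 to 0.622 in the TGFB1 group, and that of IL11 to LIF is 0.159 to 0.248 and 1.75 to 2.07.

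Of the 4 other receptor genes, IL31RA was higher, CNTFR was lower, and IL11RA and IL27RA did not pass. IL11RA, the IL-11 binding chain, was low in both groups, at 2.72, 3.47 and 4.14 CPM in control and 2.72, 3.42 and 4.08 CPM in TGFB1 libraries. The groups overlapped completely, with a 95% interval of the fold from 0.733 to 1.31 (edgeR adjusted p = 0.922). IL11RA shares exon sequence with GALT on its own strand and with CCL27 on the other in GENCODE 29. Reads in shared sequence may be missing from the IL11RA count. GALT itself fell from 19.0 ± 1.04 to 13.0 ± 0.827 CPM (edgeR adjusted p = 2.01e-05). IL31RA had 3 reads over the control group and 52 over the TGFB1 group, a ratio of 16.8 with an exact 95% counting interval of 5.44 to 84.2 (edgeR adjusted p = 3.36e-06). CNTFR, the binding chain for CNTF and CLCF1, had 37 and 8 reads, or 0.860 ± 0.217 and 0.189 ± 0.165 CPM (edgeR adjusted p = 0.00108). Each of these passed the filter on low counts only through the group where it was high, which fixed its direction. With at least 1 CPM required in 3 libraries, 0 of the 4 other receptor genes were called higher and 0 lower. IL27RA stood at 10.9 ± 0.318 and 13.0 ± 0.923 CPM (edgeR adjusted p = 0.0545). With library size as the only scaling it was called higher (edgeR adjusted p = 0.0185), as it was with upper quartile scaling (edgeR adjusted p = 0.0350). It was also called higher without TGFB1 library 2 (edgeR adjusted p = 0.0332).

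**Figure D3:**
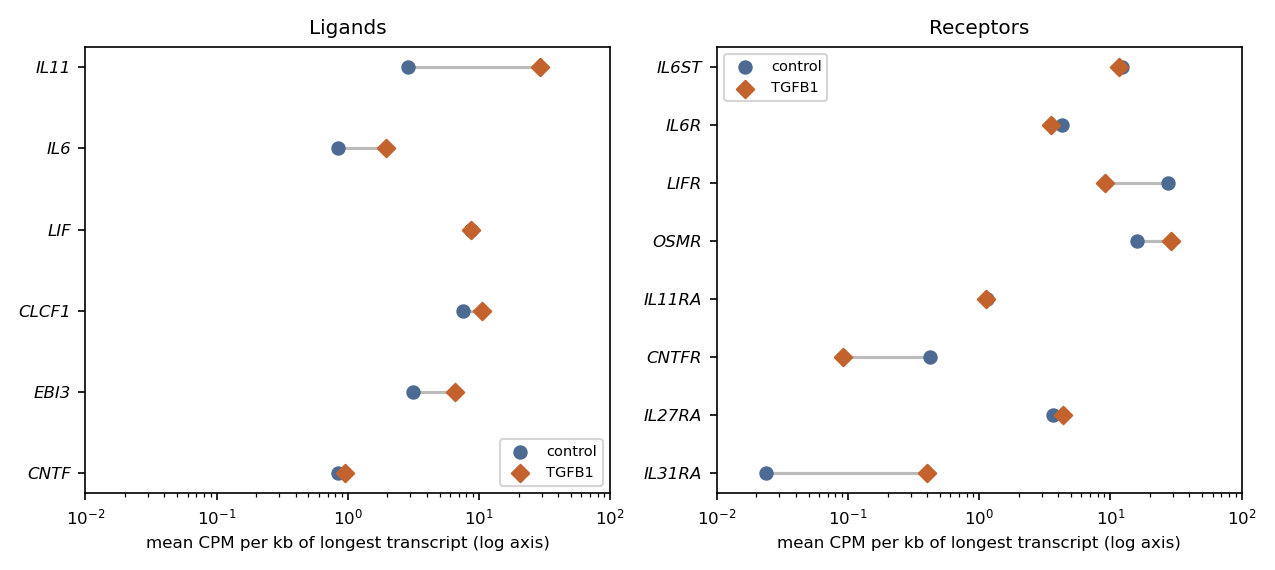
Mean level over 3 libraries in CPM per kb of the gene's longest GENCODE 29 transcript (horizontal log axis) for family ligands (left) and receptor chains (right), control as circles and TGFB1 as diamonds. IL11 moves from 2.87 to 29.04, while LIFR and OSMR change places and the symbols of IL6ST and of IL11RA overlap.

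To compare levels between genes, CPM was divided by the length of the longest transcript. In control libraries the order of levels per kb was STAT3 (37.4 ± 1.02 CPM per kb), LIFR (27.4 ± 3.11), SOCS3 (17.1 ± 2.13), OSMR (15.9 ± 0.915), IL6ST (12.3 ± 0.813), LIF (8.63 ± 0.712), CLCF1 (7.48 ± 0.640), IL6R (4.29 ± 0.171), IL11 (2.87 ± 0.471) and IL6 (0.844 ± 0.202). SOCS3 and OSMR, next to each other there, differed by less than the larger of their SDs. In TGFB1 libraries STAT3 (36.1 ± 0.983) was followed by IL11 (29.04 ± 0.925), OSMR (28.8 ± 3.23), SOCS3 (12.0 ± 0.141), IL6ST (11.5 ± 0.716), CLCF1 (10.6 ± 0.453), LIFR (9.03 ± 0.758), LIF (8.68 ± 0.729), IL6R (3.54 ± 0.214) and IL6 (1.95 ± 0.498). Here IL11 and OSMR, SOCS3 and IL6ST, and LIFR and LIF lay within 1 SD of each other. IL11 thus stood at rank 9 of the 10 members in control and at rank 2 in TGFB1 libraries. With the median transcript length in its place, IL11 stood at rank 9 and rank 5.

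Downstream of the receptors STAT3 was not called. It held 192, 183 and 192 CPM in control and 180, 188 and 179 CPM in TGFB1 libraries, overlapping groups with a 95% interval of the fold from 0.903 to 1.03 (edgeR adjusted p = 0.415). These are mRNA levels, and the phosphorylation that activates STAT3 was not measured. SOCS3 stood at 45.3, 41.8 and 53.2 CPM in control and at 32.4, 33.2 and 32.8 CPM in TGFB1 libraries. All TGFB1 libraries were lower, by 1.43-fold (95% interval 1.28 to 1.59, edgeR adjusted p = 2.64e-06).

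Among the 4 JAK kinases, JAK1, the main kinase of gp130, rose from 149 ± 8.93 to 175 ± 7.41 CPM, or 1.17-fold (edgeR adjusted p = 0.000569). JAK2 and JAK3, far lower in reads, fell 1.63-fold and 1.51-fold (edgeR adjusted p = 0.00136 and 0.00346), and TYK2 was not called. Of 5 other STAT genes 0 rose, 2 fell and 3 were not called. STAT6 and STAT5A fell by 0.16 and 0.14 on the log2 scale. With library size as the only scaling neither was called (edgeR adjusted p = 0.0780 and 0.241), and of the 5 genes STAT5B alone was, as higher (edgeR adjusted p = 0.0250). The call of STAT5A was also lost without control library 2 or 3, or without TGFB1 library 2 or 3, with edgeR adjusted p of up to 0.166. It was lost too with upper quartile scaling (edgeR adjusted p = 0.100), with no filter on low counts (edgeR adjusted p = 0.0688) and in DESeq2 (adjusted p = 0.0802). STAT5A and STAT5B are neighbours of closely similar sequence, so reads that match both may be missing from their counts, which was not checked. STAT2, STAT4 and STAT5B did not pass. Without control library 2 STAT2 was called lower (edgeR adjusted p = 0.0452), and without TGFB1 library 3 STAT5B was called higher (edgeR adjusted p = 0.0491).

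The other SOCS genes moved in both directions. Of 7 tested, SOCS2 and SOCS6 rose, SOCS5 fell, and SOCS1, SOCS4, SOCS7 and CISH were not called. SOCS2, best known as a brake on growth hormone signalling, rose from 2.94, 3.54 and 5.14 CPM to 12.8, 12.6 and 13.1 CPM, or 3.28-fold (edgeR adjusted p = 1.07e-10). SOCS6 rose 1.74-fold, and SOCS5, which acts on the epidermal growth factor receptor, fell 1.60-fold. SOCS1, which binds JAK kinases directly, was low, at 0.747 ± 0.129 and 1.22 ± 0.0658 CPM (edgeR adjusted p = 0.0821). CISH was called higher without control library 2 (edgeR adjusted p = 0.0340).

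**Figure D4:**
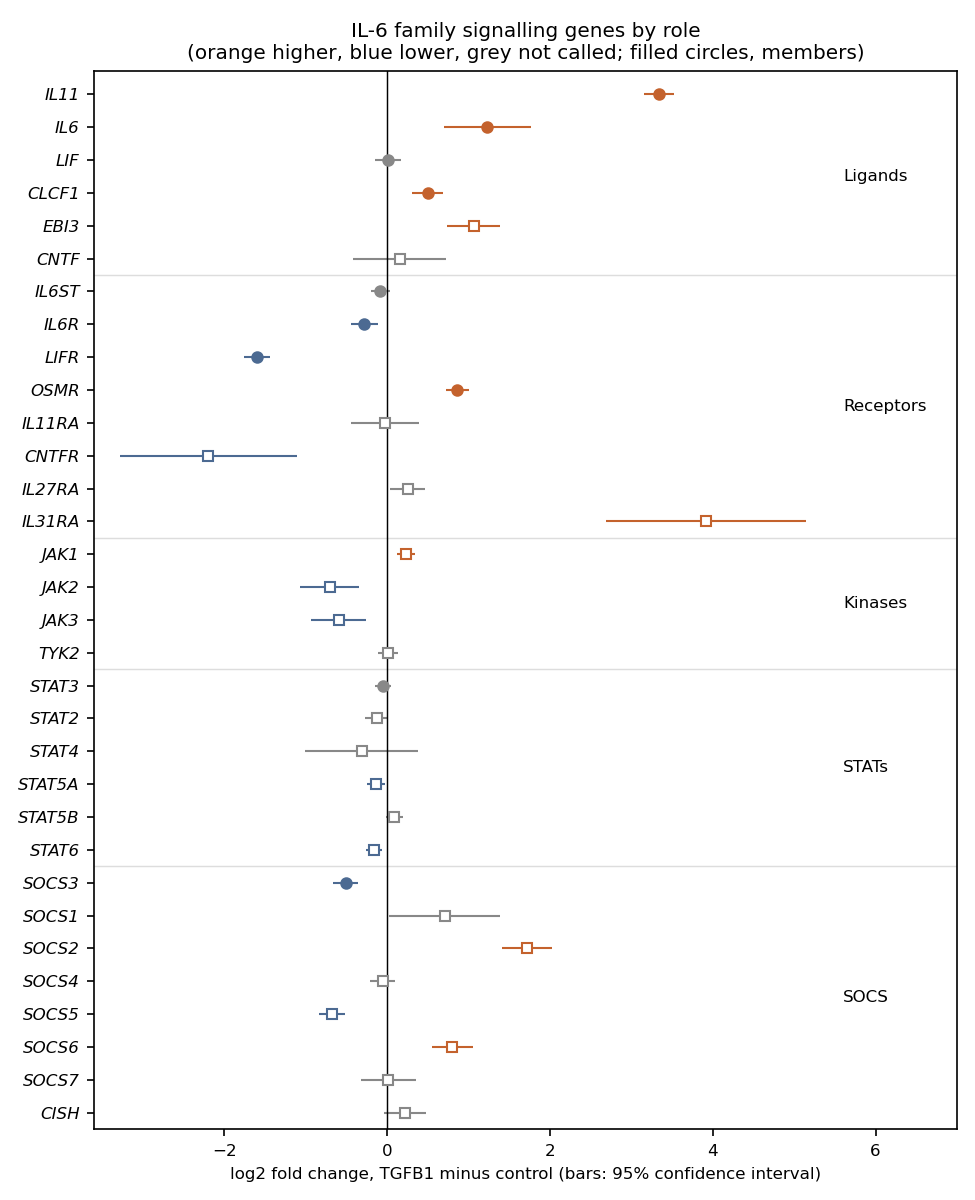
Log2 fold change, TGFB1 minus control, with its 95% confidence interval (horizontal axis) for tested IL-6 family genes grouped by role; filled circles are the 10 members and open squares other genes. IL11 (3.34) lies far to the right, LIFR (−1.60) to the left, and the intervals of STAT3 and IL6ST include 0. The value of IL31RA rests on 3 control reads and depends on the fit.

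Further lists covered inhibitors of the pathway and its arm to MAP kinases. Of 8 tested PIAS genes and phosphatases that act on JAK-STAT signalling, 1 rose, 0 fell and 7 were not called, beside the 47.3% called among all tested genes. The 1 was PTPRE, a receptor-type tyrosine phosphatase, at 3.35 ± 0.0527 and 15.2 ± 0.878 CPM (edgeR adjusted p = 3.24e-14). PIAS3, an inhibitor of STAT3, was called higher as well with library size as the only scaling (edgeR adjusted p = 0.0199). The same held with upper quartile scaling (edgeR adjusted p = 0.0488) and without TGFB1 library 3 (edgeR adjusted p = 0.0327). With library size as the only scaling PTPN1 was called higher too (edgeR adjusted p = 0.0313). Of 9 tested genes of the arm from gp130 through SHP2 to MAP kinases, 0 rose, 2 fell and 7 were not called, the adaptor SHC1 among the last (edgeR adjusted p = 0.0791). The adaptor GRB2 and the kinase MAPK3 fell by 0.17 and 0.16 on the log2 scale. With library size as the only scaling neither was called (edgeR adjusted p = 0.0786 and 0.198), and MAP2K1 was, as higher (edgeR adjusted p = 0.00931). Upper quartile scaling also called MAP2K1 higher (edgeR adjusted p = 0.0310) and ended the call of MAPK3 (edgeR adjusted p = 0.0862). MAPK3 was not called in DESeq2 either (adjusted p = 0.0952), nor with no filter on low counts (edgeR adjusted p = 0.0712). Its call was lost with any single library left out other than control library 2, with edgeR adjusted p of up to 0.115.

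Among 5 genes of receptor shedding and handling, 2 rose, 2 fell and 1 was not called. FURIN, the protease that matures many precursors, TGF-β and ADAM proteases among them, rose from 127, 123 and 123 CPM to 487, 481 and 443 CPM, or 3.78-fold (edgeR adjusted p = 1.71e-22). ADAM10, which can shed IL6R, rose 1.20-fold. The gene not called was ADAM17, at 35.4 ± 4.39 CPM in control and 35.2 ± 1.80 CPM in TGFB1 libraries (edgeR adjusted p = 0.948). ERAP1, an aminopeptidase of antigen processing, fell 2.14-fold, and SORL1, a sorting receptor, 1.33-fold.

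Known STAT3 target genes did not move in 1 direction. Of 28 listed 20 were tested, of which 7 rose, 7 fell and 6 were not called, with a median log2 fold change of 0.040 beside 0.00033 over all tested genes. The called share, 14 of 20, stands beside the 47.3% of all genes. JUNB, an AP-1 subunit that also responds to SMADs, rose from 30.4, 30.6 and 32.2 CPM to 129, 120.0 and 126 CPM, or 4.02-fold (edgeR adjusted p = 6.20e-21). BCL3, a coregulator of NF-κB, rose 2.23-fold, the cyclin gene CCND1 1.52-fold and HIF1A, the hypoxia-response factor, 1.41-fold. FOS, CEBPD and MUC1, named here after their values were seen, fell 1.87-fold, 1.81-fold and 1.64-fold. The 8 genes not tested were acute-phase genes of the liver (FGA, FGB, FGG, SERPINA3, HP, CRP, SAA1 and LBP), with at most 16 reads over a group.

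**Figure D5:**
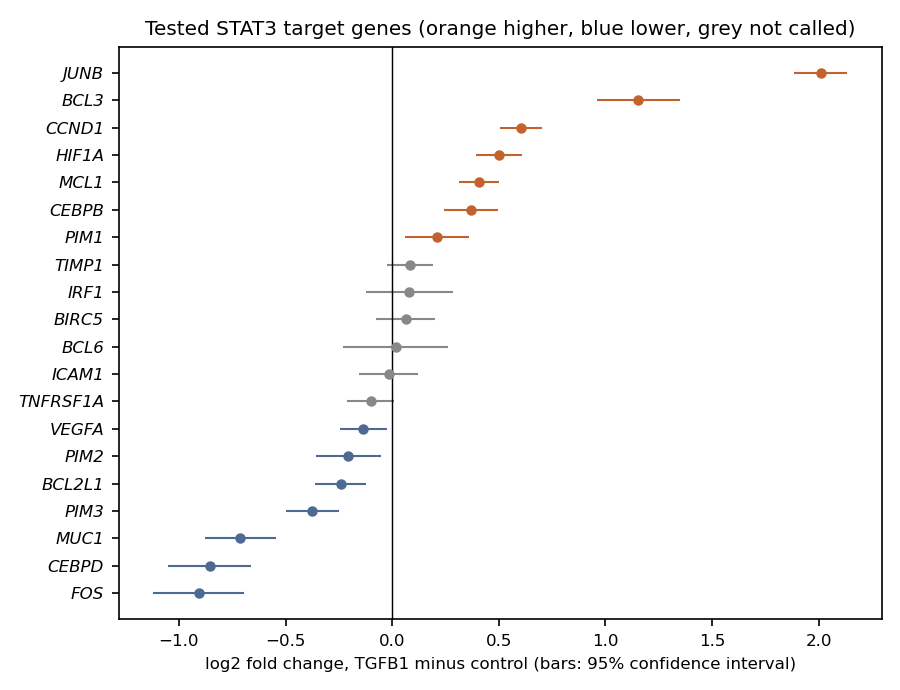
Log2 fold change, TGFB1 minus control, with its 95% confidence interval (horizontal axis) for the 20 tested STAT3 target genes, orange for higher, blue for lower and grey for not called. The 7 higher and 7 lower genes lie on both sides of 0, from JUNB at 2.01 to FOS at −0.91.

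The genes whose log2 CPM followed IL11 most closely over the 6 libraries, among the 11360 genes whose log2 CPM averaged 2 or more, were HTR1D (Pearson r = 0.99946), STK38L (0.99943), TGFBR1 (0.99941), LGMN (0.99936) and ANKRD13A (0.99905). HTR1D, a serotonin receptor gene, went from 2.25 ± 0.415 to 26.2 ± 1.15 CPM, a change of the same order as that of IL11. TGFBR1, the type I receptor of TGF-β, went from 101 ± 7.45 to 340.0 ± 3.78 CPM, and LGMN, a lysosomal protease gene, from 65.9 ± 2.02 to 104 ± 1.73 CPM. These values describe the same 6 libraries in 2 groups, where 313 genes had r over 0.99.

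Total counts in genes ran from 13012898 to 16005222 per library. The epithelial keratin genes KRT8 (1711 ± 1.33 and 1678 ± 20.4 CPM) and KRT18 (183 ± 7.36 and 125 ± 2.59 CPM) were abundant. The intestinal marker CDX2 had 0 reads, and KRT19, KRT20, CDX1, VIL1, CDH17 and CEACAM5 had at most 7 over a group. These genes are thus nearly absent under the colorectal label. The 12 epithelial markers together held 1897 to 1911 CPM in control libraries against 1783 to 1825 CPM with TGF-β1. That sum is mostly KRT8, which was not called. KRT18 fell 1.47-fold and EPCAM 1.73-fold. CDH1 (47 and 12 reads) was called lower and LGR5 (13 and 46 reads) higher, but each passed the filter on low counts only through the group where it was high, which fixed its direction, and with at least 1 CPM required in 3 libraries 0 of these markers were called higher. Since fibroblasts are a known source of IL-11 and IL-6, their markers are given beside these rises. Of 11 fibroblast markers COL1A1, DCN and PDGFRB rose, and the summed level of the 11, mostly COL1A1, was 91.7 to 95.4 CPM in control libraries against 121 to 137 CPM with TGF-β1. COL1A2, COL3A1 and PDGFRA had 0 control reads and 1 to 3 TGFB1 reads. FAP (1 and 51 reads) and THY1 (23 and 52) were also called higher, but passed the filter only through the TGFB1 group. LUM (9 and 3 reads), ACTA2 (23 and 25) and POSTN (1 and 0) were not tested. The sum of 7 immune markers was 1.25 to 2.00 CPM in control libraries against 2.99 to 4.38 CPM with TGF-β1, with PTPRC at 0. CSF1R (29 and 145 reads) was called higher, having passed the filter only through the TGFB1 group. The rise of that sum is that of CSF1R, from 0.669 ± 0.204 to 3.27 ± 0.487 CPM. The other immune markers did not rise together: CD14 had 26 and 19 reads, CD68 4 and 3, ITGAM 5 and 6, and CD3E and LYZ 1 and 0 each. The 6 endothelial markers summed to 191 to 193 and 129 to 142 CPM, nearly all ENG, with PECAM1 and KDR at 0. ENG fell 1.42-fold, and VWF (115 and 23 reads) was called lower, having passed the filter only through the control group. In bulk libraries fewer cells of a type and less RNA per cell cannot be told apart, and the part of these markers in the results was not tested.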

How the data were processed

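RNA of 6 SW480 libraries, 3 control and 3 TGFB1, was sequenced, and the authors deposited 1 table of raw read counts per gene symbol for each library. Per the submitters' processing notes, the builds were hg19 and GRCh37 and the tools HTSeq, TopHat and TopHat2 2.0.11, without their roles. No source used here gives the annotation, strand setting or filters. Each table ends in 5 counter totals, which were left out: reads without a feature made up 5.44% to 5.98% of all counts, ambiguous reads 9.01% to 9.43% and multiply aligned reads 12.0% to 12.5%, so genes that overlap or have close copies can be counted low.

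Groups came from the sample titles. Within a group all pairs of libraries differed by more than sampling noise (chi-square per degree of freedom 1.82 to 4.67). Genes passed edgeR's filterByExpr (minimum count 10, minimum total 15), were scaled by TMM and tested with edgeR 4.0.16 (robust glmQLFit, glmQLFTest, R 4.3.3), Benjamini-Hochberg adjustment over 14897 genes, threshold 0.05. Each standard error is the size of the log2 fold change over the root of its F. The test was tried on simulated counts with known changes. Intervals of counts and limits for 0 reads (3 reads over a group) cover counting error only, since reads carry no molecular identifiers. Transcript lengths and overlaps came from GENCODE 29 (GRCh38), used for gene properties only.

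Members and gene lists were chosen with earlier results of these data known. The text names all members, all other family ligands, receptors, JAK, STAT and SOCS genes, up to 4 genes of lowest p from each further list, markers needed for a range, and the 5 genes most correlated with IL11. Exon-sharing and flanking genes and a few others were named outside that rule. A few genes of the lists are not reported here and are left out of the lists' counts. Alternatives were DESeq2 1.42.0, limma-voom (limma 3.58.1), other scalings and filters, a block for the replicate number, and each library left out in turn.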

Additional observations from a re-analysis of the deposited data

How the results depend on the processing

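Each of the 7 called members kept its direction and its call under all 14 alternatives to its test, with log2 fold changes of 3.26 to 3.48 for IL11, 0.98 to 1.41 for IL6, 0.44 to 0.56 for CLCF1, 0.79 to 0.95 for OSMR, −1.67 to −1.51 for LIFR, −0.60 to −0.42 for SOCS3 and −0.32 to −0.22 for IL6R, whose highest adjusted p was 0.0414. LIF, IL6ST and STAT3 were not called under any. LIF ranged from −0.059 to 0.070 with a library left out, and STAT3 stood at 0.0066 with library size as the only scaling. Of 64 tested genes in the further pathway lists 15 were higher and 17 lower, beside the 47.3% called among all genes. These counts include IL31RA and CNTFR, whose direction the filter on low counts fixed. With at least 1 CPM required in 3 libraries the counts were 14 higher and 16 lower. Where library size was the only scaling they were 21 and 11, and of all genes 4216 were higher and 2879 lower, against 3483 and 3561. That scaling moved the median log2 fold change of all genes to 0.057. It also turned the sign of IL11RA, to 0.028. With a library left out, the sign of 5 uncalled genes besides LIF changed: CNTF ranged from −0.087 to 0.42, TYK2 from −0.026 to 0.054, IL11RA from −0.17 to 0.12, STAT4 from −0.50 to 0.026 and SOCS7 from −0.20 to 0.20.

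With the replicate number as a block 7 members were called, 4 higher and 3 lower, and 6775 of all genes against 7044. Libraries with the same number did not deviate together (correlations of 0.034, −0.089 and −0.046 across genes). Pairs with different numbers had correlations of −0.082 to 0.125. With 3 libraries per group these values cannot show whether a number stands for a shared culture or preparation, which the labels do not say. The block ended the calls of STAT5A and MAPK3 (edgeR adjusted p = 0.0893 and 0.0758).

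Ranks of level per kb changed with the median transcript length. In control libraries LIFR stood at rank 1, IL6ST at 2, STAT3 at 3, IL6R at 5, SOCS3 at 6, LIF at 7 and CLCF1 at 8. In TGFB1 libraries OSMR stood at rank 1, IL6ST at 2, STAT3 at 3, LIFR at 4, IL11 at 5, IL6R at 6, SOCS3 at 7 and CLCF1 at 9. Low counts limit several values, IL6 (55 and 134 reads over the groups), CNTF (69 and 79), STAT4 (51 and 42), SOCS1 (32 and 54), CNTFR (37 and 8) and IL31RA (3 and 52) among them.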

Other observations

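Some receptor genes of the family are neighbours in the genome. In RefSeq (GRCh38.p14) LIFR and OSMR are adjacent protein-coding genes on chromosome 5, with EGFLAM before and RICTOR after them. Along this row EGFLAM, which encodes an extracellular matrix protein, fell from 3.06 ± 0.542 to 1.04 ± 0.272 CPM (edgeR adjusted p = 1.66e-05), LIFR fell 3.03-fold, OSMR rose 1.82-fold and RICTOR was not called. IL31RA and IL6ST are also adjacent on chromosome 5. IL31RA had 3 and 52 reads over the groups, and IL6ST was not called. CNTFR and IL11RA lie on chromosome 9 with 5 protein-coding genes between them. CNTFR had 37 and 8 reads over the groups, and IL11RA was not called. IL31RA and CNTFR passed the filter on low counts only through the group where they were high, which fixed their direction.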
